A study of Mus musculus with 2 samples.

Results

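The 9 genes described here encode the contents of cytotoxic granules and the proteins secreted with them: the granzymes Gzma, Gzmb, Gzmk and Gzmm, the pore-forming protein perforin (Prf1), the granule membrane protein Nkg7, the chemokines Ccl5 and Xcl1, and interferon gamma (Ifng). They were chosen by symbol, each matched 1 row, and they are 9 of the 32285 genes in the files. Their levels were read in natural killer (NK) cells, CD8 T cells and the other lymphoid cells of 2 single-cell libraries from collagenase digests of mouse lung. Both libraries came from C57BL/6 mice with the genotype SP-CI73T mutant, an allele of the surfactant protein C gene whose expression is raised when an oral dose of tamoxifen (175 mg/kg, in corn oil) removes a neomycin cassette. One library is titled injured, which the series design places 14 days after injury, and the other is titled control, which the design calls steady state. The treatment tags run the other way, with the injured library tagged untreated and the control library tagged tamoxifen treated, so the direction of each comparison below follows the titles. The lungs had been lavaged and perfused, red cells had been lysed, and the labels do not say how many animals went into a library. With 1 library per group there is no replicate check: no difference was tested, and every interval covers counting error only.

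Cytotoxic lymphocytes kill a target cell by releasing preformed granules at the contact site. Perforin opens the target membrane, and granzymes, which are serine proteases, enter and cut substrates that start cell death. NK cells hold such granules ready without prior antigen exposure, whereas CD8 T cells acquire them after activation. Ccl5 attracts T cells and monocytes, Xcl1 attracts Xcr1-bearing dendritic cells, and interferon gamma activates macrophages.

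The sequences upstream of 5 members are shown because these 5 stood lower together in NK cell-like cells of the injured library, as the levels below describe. They are RefSeq windows of at most 250 bases before the transcript start on GRCm38.p6, read 5′ to 3′ on the gene strand, and cut back where the GENCODE M21 start lies further upstream. Capitals mark matches to the core letters GGTGTGA of T-box factors, TGTGGT of Runx factors and TGAGTCA of AP-1, on either strand.
Gzma: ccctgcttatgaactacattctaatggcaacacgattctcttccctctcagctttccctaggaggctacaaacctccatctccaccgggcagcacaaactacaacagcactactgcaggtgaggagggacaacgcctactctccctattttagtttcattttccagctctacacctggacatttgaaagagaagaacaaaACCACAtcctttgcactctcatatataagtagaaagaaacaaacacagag
Gzmb: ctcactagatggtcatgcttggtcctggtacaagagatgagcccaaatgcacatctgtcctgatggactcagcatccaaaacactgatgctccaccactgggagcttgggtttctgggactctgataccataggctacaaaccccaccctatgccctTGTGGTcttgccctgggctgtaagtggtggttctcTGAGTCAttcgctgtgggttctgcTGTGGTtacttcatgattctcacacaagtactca
Prf1: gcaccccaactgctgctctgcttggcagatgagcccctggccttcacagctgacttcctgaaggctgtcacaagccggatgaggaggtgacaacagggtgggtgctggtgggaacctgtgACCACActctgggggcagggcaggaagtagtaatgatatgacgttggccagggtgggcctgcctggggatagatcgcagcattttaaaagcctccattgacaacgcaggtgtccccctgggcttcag
Nkg7: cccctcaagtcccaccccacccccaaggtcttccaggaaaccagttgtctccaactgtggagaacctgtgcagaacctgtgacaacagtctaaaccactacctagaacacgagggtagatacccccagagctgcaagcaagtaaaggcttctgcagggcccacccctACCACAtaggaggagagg
Xcl1: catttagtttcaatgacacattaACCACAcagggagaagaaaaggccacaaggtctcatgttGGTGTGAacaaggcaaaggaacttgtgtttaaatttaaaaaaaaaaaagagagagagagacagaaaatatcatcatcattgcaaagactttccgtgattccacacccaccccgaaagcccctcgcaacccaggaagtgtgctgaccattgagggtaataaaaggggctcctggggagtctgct
The Gzma window is chr13:113100982-113101231 on the minus strand, the Gzmb window is chr14:56262335-56262584 on the minus strand, and the Prf1 window is chr10:61297586-61297832 on the plus strand. The Nkg7 window is chr7:43436888-43437072 on the plus strand and the Xcl1 window is chr1:164935528-164935772 on the minus strand. RefSeq entries matched 8 of the 9 members and gave 9 windows, because Gzmm has 2 starts. Ccl5 had no entry. Over full 250-base windows the Runx letters occurred upstream of 6 members (Gzma, Gzmb, Gzmm, Prf1, Nkg7 and Xcl1), and 14.0% of all 32851 windows in the table held them. The T-box letters occurred upstream of a RefSeq start of 4 members (Gzmk, Gzmm, Nkg7 and Xcl1), against 3.33% of all windows. The Nkg7 match lies 13 to 7 bases before its RefSeq start, within sequence that GENCODE counts as transcribed and that is not printed. The RefSeq start of Gzmk lies 44943 bases downstream of its GENCODE start, and the Gzmm start with the match lies 4806 bases downstream. The Gzmk and Gzmm matches therefore also lie within the GENCODE genes. The AP-1 letters occurred upstream of Gzmb, against 4.46% of all windows, and none of these motifs overlapped another. A match is a description of the letters and does not show that a factor was bound. By GENCODE M21 on GRCm38, Gzma (13:113093825-113100981) and Gzmk (13:113171608-113225908) lie on the same strand of chromosome 13, while Gzmb (14:56258838-56262260) lies on chromosome 14. Gzmm, Prf1 and Ifng are all on chromosome 10, and Ccl5 lies at 11:83525778-83530518.

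The injured library held 2302 cells and 19864574 unique molecular identifiers (UMIs) after filtering, and the control library held 2298 cells and 15982940 UMIs. Median depth was 3277.5 UMIs per cell in the injured library and 4485 in the control library, and 1 cell barcode occurred in both. Lymphoid cells were grouped without using the 9 members, so that the members did not set the clusters in which they are described. The members could enter the score that removed doublets before clustering. Each cluster was named "-like" from markers. NK cell-like cells numbered 20 in the injured library, or 0.869% of its cells (exact 95% binomial interval 0.531 to 1.34%), and 88 in the control library, or 3.83% (3.08 to 4.70%). CD8 T cell-like cells numbered 72 (3.13%, 2.46 to 3.92%) and 117 (5.09%, 4.23 to 6.07%). All lymphoid cells, B cell-like cells included, numbered 289 and 698.

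Summed over all cells kept, 8 of the 9 members stood lower in the injured library by 1.5-fold or more and 1 stood higher. At the same fold and a minimum of 10 counts over both libraries, 39% of 15772 genes were called, 22% higher and 16.9% lower. Levels are given as CPM, in which a gene's counts are scaled by the total UMIs of the same cells, and the 3′ libraries count molecules, so a longer transcript does not gain counts. The median log2 ratio of injured over control, after adding 10 CPM, was -1.24 over the members and 0.02 over all genes tested.

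Among the granzymes, Gzma, a tryptase, was the most abundant. It stood at 34.4 CPM (684 counts) for the injured library against 381 CPM (6094 counts) for the control library, which puts control over injured at 11.1 (exact 95% interval 10.2 to 12.0012). Gzmb, which cuts after aspartate and activates caspases, had 83 counts (4.18 CPM) against 419 (26.2 CPM), 6.27-fold lower in the injured library (4.95 to 8.04). Gzmk ran the other way with 13 counts against 2, and Gzmm had 20 against 30. These last 2 granzymes stayed under 2 CPM in both libraries, so their ratios rest on a few molecules.

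Prf1 had 95 counts (4.78 CPM) in the injured library and 749 (46.9 CPM) in the control library, 9.80-fold lower (7.91 to 12.3). Nkg7, which is needed for granule release, had 493 counts (24.8 CPM) against 2278 (143 CPM), 5.74-fold lower (5.21 to 6.34). Ccl5 was the highest member in both libraries and differed less, with 4849 counts (244 CPM) against 9400 (588 CPM), 2.41-fold lower (2.33 to 2.49). Ifng had 12 counts against 27, and Xcl1 had 18 against 101, 6.97-fold lower (4.20 to 12.2). In such sums, fewer cells of a type and less RNA per cell cannot be told apart, so the levels within classes follow.

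**Figure D1:**
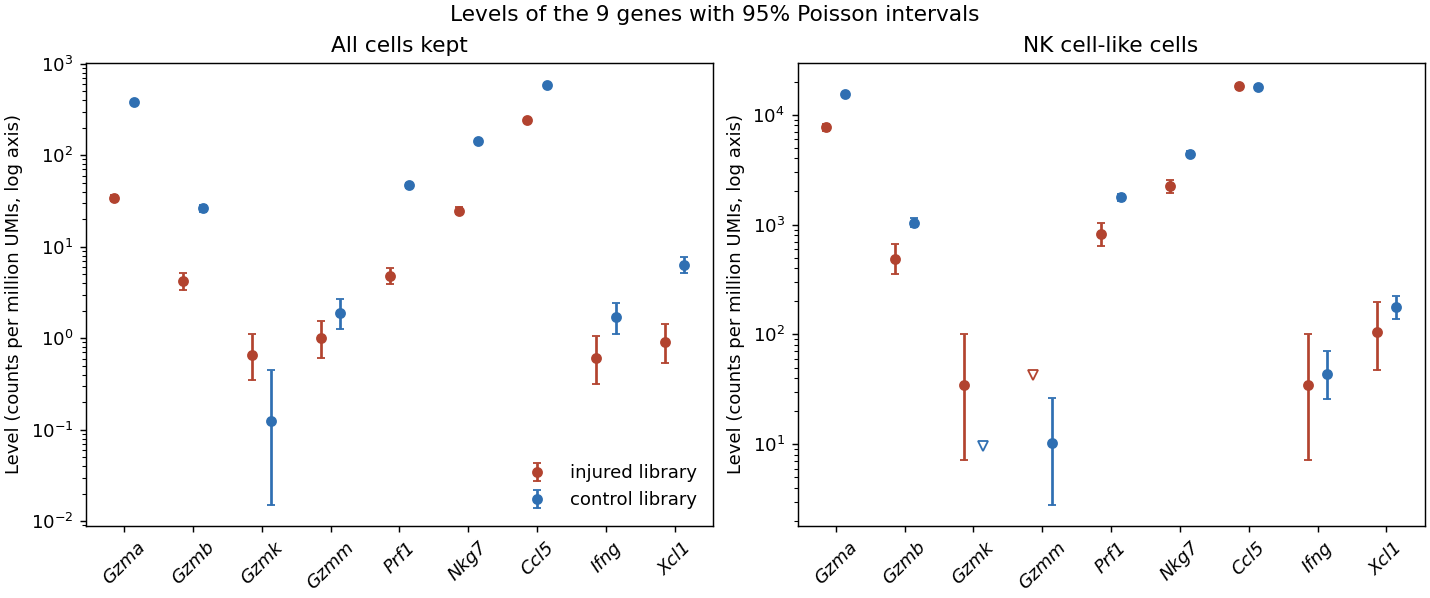
Level of each member in CPM (log axis) over all cells kept (left) and in NK cell-like cells (right), with exact 95% Poisson intervals; open triangles are the upper limits of levels with 0 counts. In the right panel Gzma, Gzmb, Prf1 and Nkg7 of the injured library sit below the control library, and the 2 Ccl5 points lie side by side at about 18034 and 17995 CPM.

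NK cell-like cells carried nearly all Gzma counts in both libraries, 96.6% of 684 in the injured library (exact 95% binomial interval 94.997 to 97.9%) and 97.5% of 6094 in the control library (97.1 to 97.9%). They carried 95.7% of Gzmb counts and 91.3% of Prf1 counts in the control library, but 50.6% (39.4 to 61.8%) and 73.7% (63.6 to 82.2%) in the injured library. The share of Nkg7 counts in NK cell-like cells was 38.9% in the injured library and 74.7% in the control library, and CD8 T cell-like cells carried 52.3% and 21.7%. Gzmk was found in T and NK cells only, 10 of its 13 counts in CD8 T cell-like cells of the injured library. Gzmm had no main source, with 11 of 20 counts and 15 of 30 counts outside the lymphoid classes.

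The main source of Ccl5 also differed between the libraries. In the control library 73.8% of its counts came from NK cell-like cells and 6.76% from mature dendritic cell-like cells, marked by Ccr7 and Fscn1. In the injured library 32.0% came from NK cell-like cells and 42.3% (40.9 to 43.7%) from mature dendritic cell-like cells, of which there were 99 against 9 in the control library. Its level in those dendritic cells was 2290 CPM (injured) and 8495 CPM (control), and 1 of the 9 control cells gave 231 of their 635 counts. No other member had more than 1 count in these dendritic cells of either library.

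With NK cell-like cells left out, 5 members stood lower in the injured library, 2 stood higher (Gzmb and Gzmk) and 2 stood at neither (Ccl5 and Ifng), where 38.8% of 15735 genes were called, 22.3% higher and 16.6% lower. Ccl5 then stood at 167 CPM (injured) and 158 CPM (control), a ratio of 1.06 (1.002 to 1.11). Gzmb was at 2.07 and 1.15 CPM from 41 and 18 counts, and 18 of those 41 counts came from 1 neutrophil-like cell of 6021 UMIs.

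**Figure D2:**
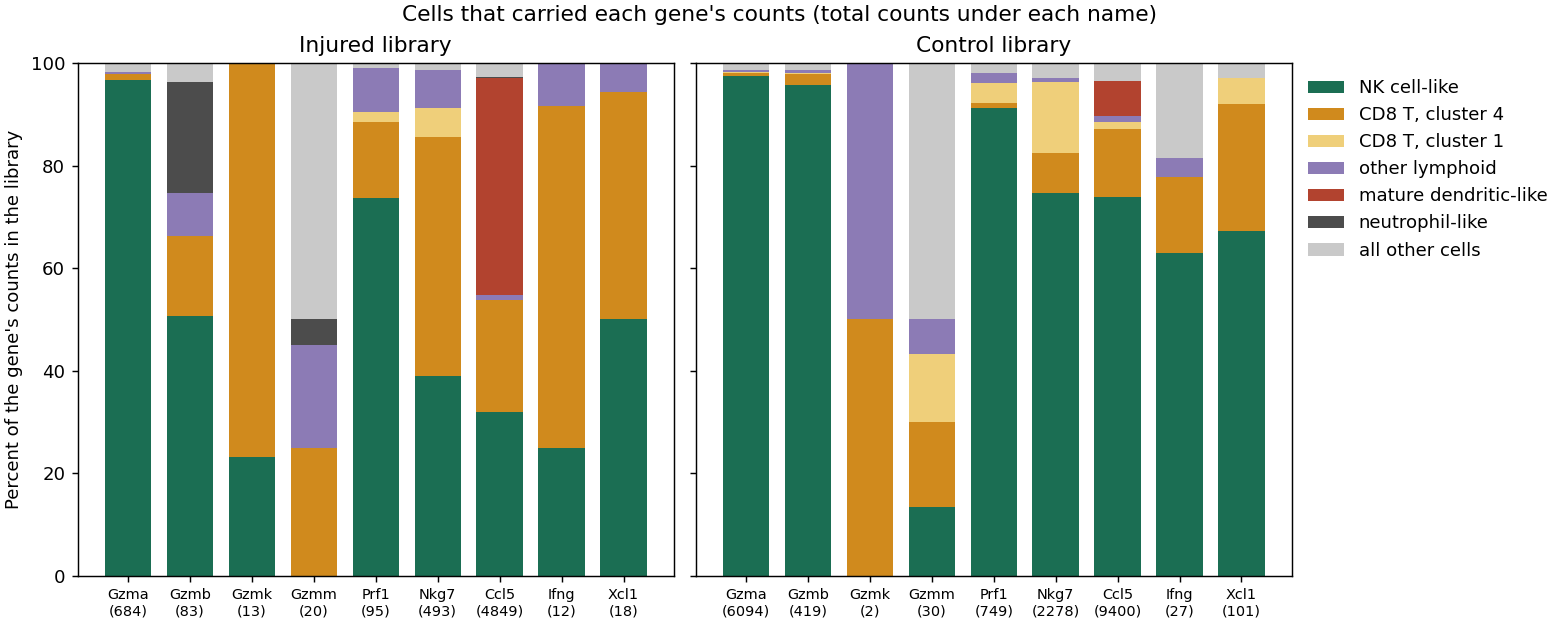
Share of each member's counts (percent) carried by each class of cells in the injured (left) and control (right) library, with the number of counts under each name. Green marks NK cell-like cells, which hold over 96% of Gzma counts in both panels, and red marks mature dendritic cell-like cells, which hold 42.3% of Ccl5 counts in the injured library.

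In both libraries NK cell-like cells held Gzma, Gzmb, Prf1 and Nkg7 at higher levels than any other lymphoid class in the map. In the control library Xcl1 and Gzmm were higher in cluster 4 of the CD8 T cell-like cells, at 256 and 51.2 CPM. There 1 cell gave 13 of 25 Xcl1 counts and another gave 4 of 5 Gzmm counts. Without the highest cell of each class, Xcl1 was at 132 CPM in cluster 4 and 134 CPM in NK cell-like cells. In NK cell-like cells of the control library the order by level began with Ccl5 (17995 CPM), Gzma (15415 CPM), Nkg7 (4415 CPM) and Prf1 (1774 CPM). Gzmb (1040 CPM), Xcl1 (176 CPM), Ifng (44.1 CPM) and Gzmm (10.4 CPM) followed, with Gzmk at 0 counts. The order in the injured library was the same for the first 6. Ncr1, the activating receptor NKp46, was found in 75% of the injured and 95.5% of the control cells, Klrd1 in 100% and 94.3%, and Eomes in 60% and 70.5%. Cd3e had no count in the 20 injured cells, and 2 of 20 and 7 of 88 cells had a UMI of any CD3 gene. The summed level of the 11 NK markers was 4076 CPM among injured and 6744 CPM among control cells, so markers of the class stood lower beside the members, and their part in the result was not tested. The summed markers of secretory cells were at 488 and 1857 CPM, those of alveolar macrophages at 372 and 96 CPM and those of B cells at 139 and 93.4 CPM, and their part was not tested either.

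**Figure D3:**
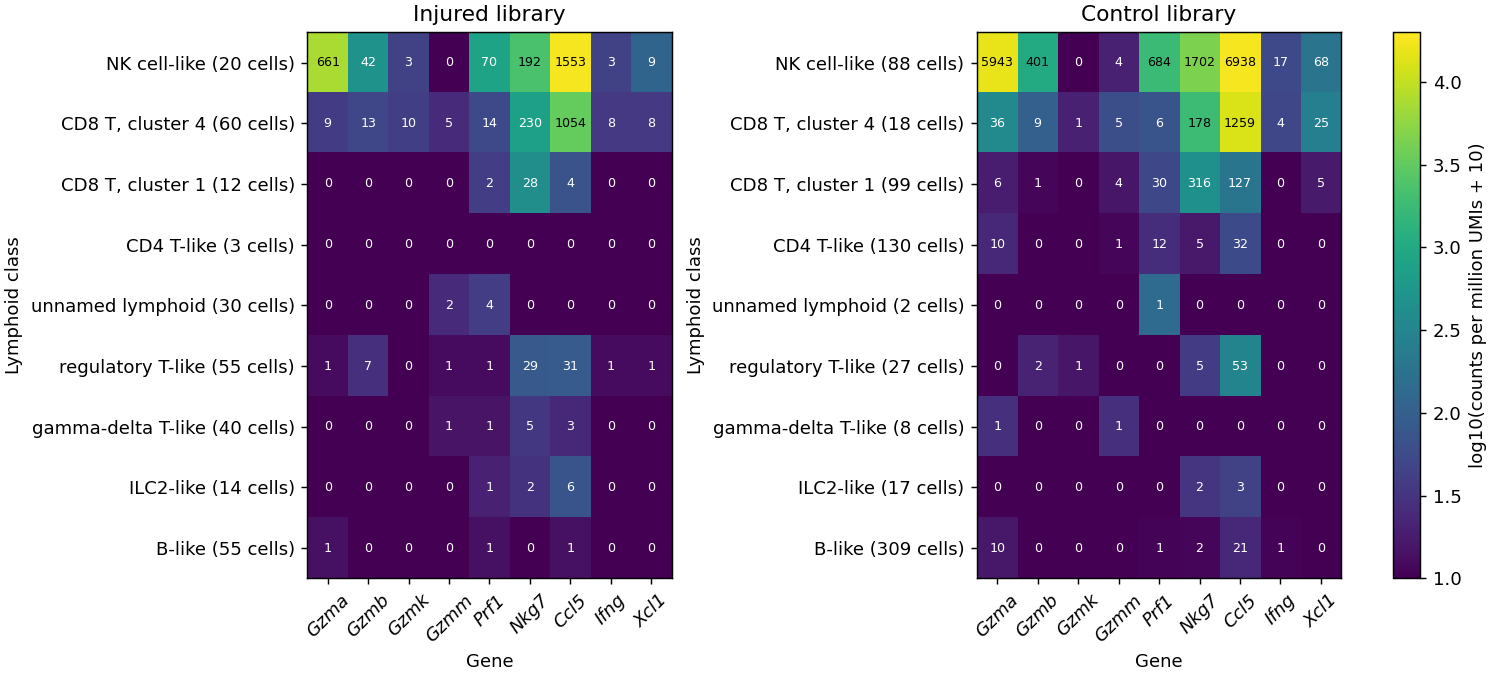
Level of each member in each lymphoid class, coloured by log10(CPM + 10), in the injured (left) and control (right) library; numbers are raw counts and the number of cells stands beside each class. In both panels the NK cell-like row is brightest for Gzma, Gzmb, Prf1, Nkg7 and Ccl5. Xcl1 and Gzmm of the control library are brighter in cluster 4 of the CD8 T cell-like cells. There 1 cell gave 13 of 25 Xcl1 counts and another gave 4 of 5 Gzmm counts.

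Within NK cell-like cells, 5 of the 7 members with enough counts stood lower in the injured library, none stood higher, and Ccl5 and Ifng stood at neither. In this class 51.5% of 5861 genes were called, 25% higher and 26.5% lower, and the median log2 ratio was -0.98 over the tested members and 0.01 over all genes. The 20 injured cells held Gzma at 7676 CPM and the 88 control cells at 15415 CPM, a ratio of injured over control of 0.498 (0.459 to 0.540). Per cell, Gzma ran from 0 through a median of 6806 to 20747 CPM in the injured cells, and from 0 through 16180 to 34781 CPM in the control cells. Gzma had a UMI in 15 of 20 injured cells and 87 of 88 control cells. The distributions overlapped, and the injured median lay below that of the control cells.

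Gzmb was at 488 CPM from 42 counts in the injured cells and 1040 CPM from 401 counts in the control cells, a ratio of 0.469 (0.333 to 0.645). Prf1 was at 813 CPM from 70 counts and 1774 CPM from 684 counts, a ratio of 0.458 (0.353 to 0.587). Nkg7 was at 2230 CPM from 192 counts and 4415 CPM from 1702 counts, a ratio of 0.505 (0.433 to 0.587). These 4 members of the granule machinery thus stood at ratios between 0.458 and 0.505, and their intervals overlapped each other. Nkg7 was found in every NK cell-like cell of both libraries, with a per-cell median of 2187 CPM against 4356 CPM.

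Ccl5 did not pass the fold in the same cells. Its level was 18034 CPM from 1553 counts in the injured cells and 17995 CPM from 6938 counts in the control cells, a ratio of 1.002 (0.948 to 1.06), and every cell held at least 1 Ccl5 UMI. One injured cell gave 409 of the 1553 counts, and without the highest cell of each library the levels were 14458 and 17283 CPM. On a scale set by size factors, which moves the median gene by 0.22 (log2) in this class, the log2 ratio was -0.21 for Ccl5 and -1.22 for Gzma. Xcl1 was at 105 CPM from 9 counts and 176 CPM from 68 counts, a ratio of 0.593 whose interval, 0.260 to 1.19, includes 1. One injured cell gave 5 of those 9 counts, and without the highest cell of each library Xcl1 was at 48.4 and 134 CPM. Ifng, with 3 and 17 counts, was at 34.8 and 44.1 CPM, a ratio of 0.790 with an interval from 0.148 to 2.73. Gzmk and Gzmm, with at most 4 counts in a library, were under the minimum of 10 counts.

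Median depth was 3956 UMIs in the injured and 4251 UMIs in the control NK cell-like cells. After every cell was thinned to 1000 UMIs, Gzma was found in 75% of injured cells (50.9 to 91.3%) and 97.7% of control cells (92.0 to 99.7%). Prf1 was found in 45% (23.1 to 68.5%) and 76.1% (65.9 to 84.6%), Gzmb in 30% (11.9 to 54.3%) and 48.9% (38.1 to 59.8%), and Nkg7 in 85% (62.1 to 96.8%) and 96.6% (90.4 to 99.3%). Without thinning the Gzma shares were 75% and 98.9%, the Prf1 shares 80% and 98.9% and the Gzmb shares 50% and 85.2%. As a background, B cell-like cells, which should lack Gzma, held a UMI of it in 1.82% and 3.24% of their number, with 3375 and 4504 UMIs in the median cell, and in 0 of 55 and 0 of 309 cells after thinning. At least 5 of the 9 members were found together in 15% of thinned injured cells (3.21 to 37.9%) and 45.5% of thinned control cells (34.8 to 56.4%).

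**Figure D4:**
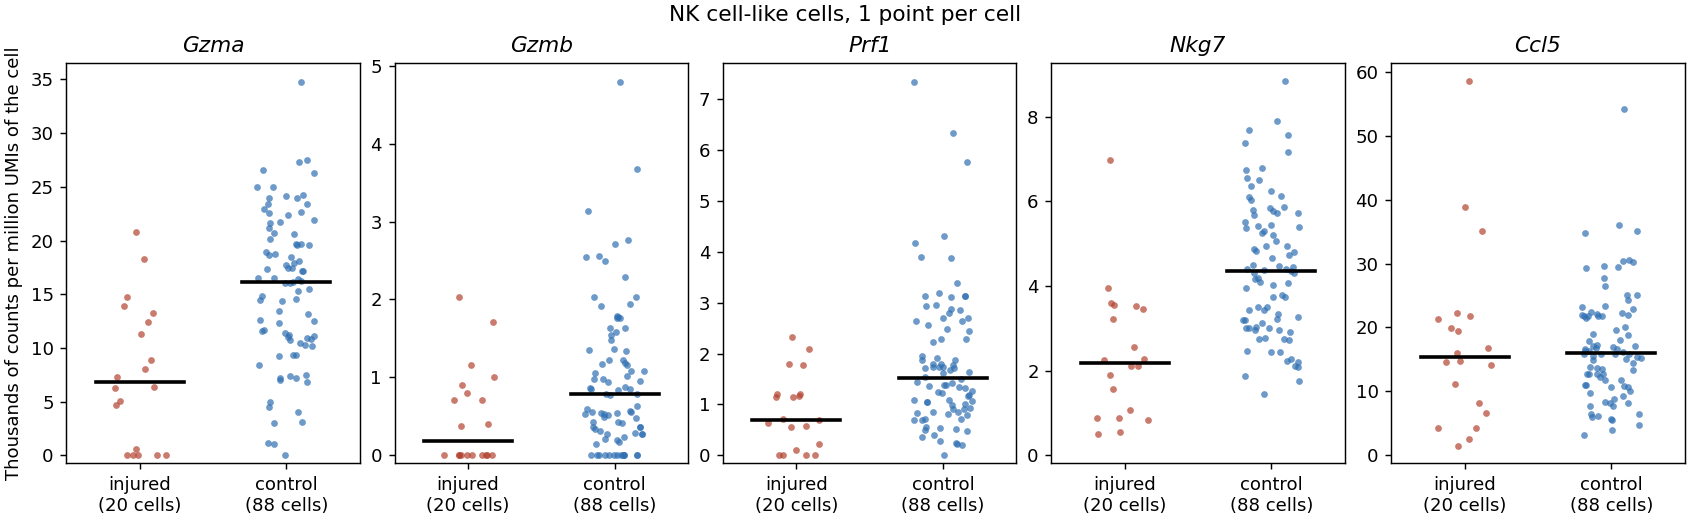
Level of 5 members in each NK cell-like cell, in CPM of that cell divided by 1000, with 1 point per cell and a black line at the median, for the injured (20 cells) and control (88 cells) library. The medians of Gzma, Gzmb, Prf1 and Nkg7 are lower in the injured library, and those of Ccl5 lie at 15385 and 16019 CPM.

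When NK cells were instead picked by UMIs of at least 2 NK markers and none of a CD3 gene, 27 injured and 85 control cells were taken and all 7 testable members stood lower, Ccl5 included at a ratio of 0.364 (0.344 to 0.386). Of 7072 genes in that pick 51.6% were called, 24% higher and 27.6% lower. The Gzma ratio was then 0.175 (0.160 to 0.190). Of those 27 injured cells, 18 belonged to the NK cluster and 7 to dendritic cell-like classes, 4 with a median of 28332 UMIs and 3 with a median of 24295 UMIs. Of the 85 control cells, 81 belonged to the NK cluster and 1 to such a class.

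Other genes of the cytotoxic programme in NK cell-like cells did not all follow Gzma. Over all 5861 genes of this class 25% were called higher and 26.5% lower, which is the share to set beside each count. Of the list of granule content and processing genes 2 of 6 with enough counts stood lower and none higher, with a median log2 ratio of -0.41. Cst7, the cathepsin inhibitor cystatin F, was at 116 against 236 CPM (ratio 0.492, 0.228 to 0.947), and Calr, the chaperone calreticulin, at 46.4 against 415 CPM. Srgn, the proteoglycan serglycin that packs granzymes, was at 441 against 604 CPM (ratio 0.730, 0.504 to 1.03). Of the granule release genes 2 of 8 stood higher and 2 lower. The 2 that stood higher are described here, and the 2 that stood lower are not. Rab27a, which docks granules at the membrane, had 15 and 12 counts, or 174 against 31.1 CPM, and Lyst, a lysosomal trafficking regulator, at 116 against 25.9 CPM from 10 counts in each library.

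Of the transcription factors 5 of 10 stood higher and 1 lower in the injured NK cell-like cells. Over all genes of this class 25% were called higher and 26.5% lower. Tcf7, a factor of early lymphocytes, was at 151 against 36.3 CPM (ratio 4.16, 1.80 to 9.54), and Runx3 at 406 against 246 CPM (1.65, 1.09 to 2.45). Id2 (998.7 and 980 CPM) and Zeb2 (592 and 628 CPM) stood at neither. Of the receptors 5 of 10 stood higher and 1 lower: Cd226, an activating receptor, was at 139 against 36.3 CPM and Cd7 at 430 against 257 CPM, while Klrk1, the receptor NKG2D, was at 1173 and 1009 CPM.

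Of the cytokine inputs 3 of 6 stood higher and 1 lower, against the same 25% and 26.5% of all genes in NK cell-like cells. Il18r1, a chain of the interleukin 18 receptor, was at 569 against 143 CPM (ratio 3.99, 2.66 to 5.97), its partner Il18rap at 674 against 418 CPM (1.61, 1.17 to 2.19), and Il2rb, which receives interleukins 2 and 15, at 1486 against 988 CPM (1.504, 1.22 to 1.84). Stat4, which acts below the interleukin 12 receptor, was at 232 and 285 CPM. Il2rb lay just past the fold. These ratios of list genes are not on the size factor scale, which lowers injured levels in this class by 0.22 (log2). Among death ligands and granzyme inhibitors 1 of 6 stood higher and 2 lower, with Fasl, the ligand of the death receptor Fas, at 163 against 363 CPM (0.448, 0.239 to 0.777) and Serpinb9, an inhibitor of granzyme B, at 813 and 648 CPM. Of the list of other chemokines of cytotoxic lymphocytes 2 of 3 stood lower: Ccl4 was at 302 against 916 CPM (0.330, 0.212 to 0.491) and Ccl9 had 0 against 15 counts, while Ccl3 was at 163 and 200 CPM. Of 4 interferon gamma targets 1 stood higher (Gbp4, 151 against 67.4 CPM) and 3 lower (Irf1, Gbp2 and Igtp, each with at most 6 counts in the injured cells).

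CD8 T cell-like cells held less Gzma, Gzmb, Prf1, Nkg7 and Ccl5 than NK cell-like cells in both libraries, and they fell into 2 clusters that the libraries filled unequally. Cluster 1, led by Cd8b1, Dapl1 and Lef1, held 12 injured and 99 control cells. Cluster 4, led by Cd8a, Bcl2 and Il2rb as well as Ccl5 and Nkg7, held 60 injured and 18 control cells. Summed over both clusters, 4 of the 9 members stood higher in the injured library (Gzmb, Gzmk, Ccl5 and Ifng). Another 2 stood lower (Gzma and Xcl1) and 3 stood at neither. In this class 44.6% of 7740 genes were called, 32.9% higher and 11.7% lower. Of the higher calls, Gzmb rested on 13 against 10 counts, Gzmk on 10 against 1 and Ifng on 8 against 4. Both lower calls leaned on single cells. Of the control counts, 1 cell gave 31 of 42 for Gzma and another gave 13 of 30 for Xcl1. One injured cell gave 8 of 9 Gzma counts. Ccl5 reached 2748 CPM among injured and 1722 CPM among control cells, for a ratio of 1.596 (1.47 to 1.73), and Nkg7 was at 670 and 614 CPM. The direction of Ccl5 turned when no doublets were removed before clustering, to a log2 ratio of -0.70, and that of Xcl1 turned to 0.12 when cells with up to 25% mitochondrial UMIs were kept.

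Within cluster 4 the directions of Ccl5, Gzmb and Ifng were the opposite. Gzmb was at 40.9 CPM from 13 counts in injured and 92.1 CPM from 9 counts in control cells. Ifng was at 25.2 CPM from 8 counts and 40.9 CPM from 4 counts. Ccl5 was at 3316 CPM from 1054 counts in the 60 injured cells and 12886 CPM from 1259 counts in the 18 control cells, a ratio of 0.257 (0.237 to 0.279). Nkg7 was at 724 CPM from 230 counts and 1822 CPM from 178 counts, a ratio of 0.397 (0.325 to 0.486). In all, 7 of the 9 members stood lower in cluster 4, 1 stood higher (Gzmk, 10 counts against 1) and Prf1 stood at neither, where 51.7% of 5349 genes were called, 29.3% higher and 22.4% lower. Per cell, Ccl5 ran from 0 through a median of 680 to 38882 CPM in injured cells and from 0 through 11590 to 55661 CPM in control cells.

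Several of these calls rested on single cells. One control cell of 914 UMIs gave 31 of the 36 Gzma counts of cluster 4, and without it the control level was 51.7 CPM. The only control CD8 T cell-like cell in the NK marker pick above also had 914 UMIs, with at least 2 NK markers and no CD3 UMI. One control cell gave 13 of 25 Xcl1 counts. With the highest cell of each library left out for each member, 5 members had enough counts in cluster 4 and 4 of them stood lower: Gzmb (28.9 against 43.5 CPM), Nkg7 (660 against 1512 CPM), Ccl5 (2849 against 10185 CPM) and Xcl1 (19.3 against 132 CPM). Prf1 stood at neither. With each gene's own highest cells left out in this way, 55.7% of 4412 genes were called, 39.1% higher and 16.6% lower. Genes of NK cells differed beside the members: Klre1 was found in 8.33% of the injured and 33.3% of the control cells of cluster 4, Klra4 in 5% and 27.8%, and Cd8a in 55% and 44.4%. Their part in the result was not tested, since leaving out cells with a UMI of Ncr1, Klra4, Klra7, Klre1 or Trdc left 44 injured and only 9 control cells.

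Cluster 1 was nearly free of granzymes in both libraries. It had no count of Gzma, Gzmb, Gzmk or Gzmm in 12 injured cells, and 6, 1, 0 and 4 counts in 99 control cells. Nkg7 was at 417 and 447 CPM, a ratio of 0.934 (0.611 to 1.38), and Prf1 at 29.8 and 42.4 CPM from 2 and 30 counts. Ccl5 had 4 counts (59.6 CPM) against 127 (180 CPM), the 1 call among 3 members with enough counts where 56.6% of 6165 genes were called, 26.4% higher and 30.2% lower, and 38 of those 127 counts came from 1 cell. A pick of cells with a UMI of Cd8a or Cd8b1 and of a CD3 gene gave 57 injured and 121 control cells, with Ccl5 at 1814 and 1464 CPM, a ratio of 1.24 (1.12 to 1.37) that no longer passed the fold. In that pick 2 of 8 members stood higher and 2 lower, where 46% of 7753 genes were called, 33.5% higher and 12.4% lower.

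**Figure D5:**
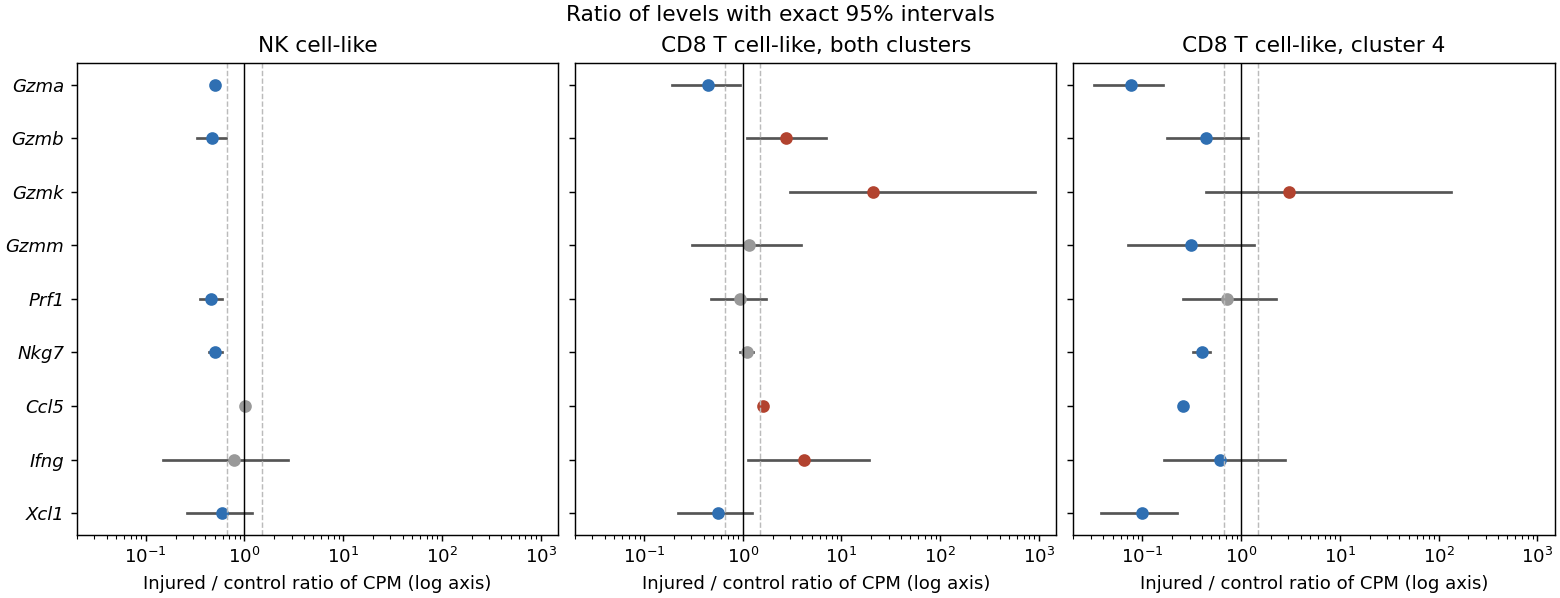
Ratio of injured over control level (log axis) of each member with at least 10 counts over both libraries, with exact 95% intervals, in NK cell-like cells (left), all CD8 T cell-like cells (middle) and their cluster 4 (right). Red points are 1.5-fold or more higher, blue points 1.5-fold or more lower and grey points neither; Ccl5 lies at 1.002, 1.596 and 0.257.

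The values of list genes in all CD8 T cell-like cells mix the 2 clusters in unequal shares, with 60 of 72 injured and 18 of 117 control cells in cluster 4. Of 9 transcription factors 7 stood higher in the injured library, among them Id2 (468 against 185 CPM), Tcf7 (486 against 297 CPM) and Runx3 (325 against 189 CPM), and none stood lower. Of 6 cytokine inputs 4 stood higher, with Il2rb at 369 against 139 CPM and Il18rap at 98.7 against 29.8 CPM. Of 8 granule release genes 4 stood higher, Lyst (156 against 53.4 CPM) and Rab27a (80.5 against 21.1 CPM) among them, and 1 lower. Of 6 granule content genes Calr stood lower (156 against 271 CPM), and Srgn, at 423 and 414 CPM, and Ctsw, at 255 and 198 CPM, stood at neither. The median over all genes tested was 0.19 on the log2 scale, and 32.9% of 7740 genes were called higher and 11.7% lower.

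The other lymphoid classes held few counts of the members. Regulatory T cell-like cells, 55 injured and 27 control, held the most. Nkg7 was at 73.2 CPM from 29 counts in 9 cells of the injured library and 28.5 CPM from 5 counts in 1 cell of the control library. Ccl5 was at 78.3 CPM from 31 counts and 302 CPM from 53 counts, but 48 of those 53 counts came from 1 cell, without which the control level was 30.0 CPM. These 2 members were the ones with enough counts, 1 higher and 1 lower, where 48.3% of 6666 genes were called, 33.5% higher and 14.8% lower. Gzmb was found in 6 injured and 2 control cells with 7 and 2 counts.

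Gamma-delta T cell-like cells, 40 injured and 8 control, held 10 counts of all members in the injured library, with Nkg7 at 5 and Gzma, Gzmb, Ifng and Xcl1 at 0. ILC2-like cells, 14 and 17, held 9 and 5 counts, all of Prf1, Nkg7 or Ccl5. CD4 T cell-like cells, 3 and 130, held none in the injured library and 32 counts of Ccl5, 12 of Prf1 and 10 of Gzma in the control library. An unnamed lymphoid cluster of 30 injured and 2 control cells with CD4 T cell markers held 4 Prf1 and 2 Gzmm counts in the injured library. In B cell-like cells, 55 and 309, Gzma had 1 and 10 counts (ratio 0.653, 0.0150 to 4.59) and Ccl5 1 and 21, both lower in the injured library by the fold where 48.4% of 8686 genes were called, 27.5% higher and 20.9% lower. The exact 95% upper limit of a count of 0 was 17.6 CPM for Gzma in the 40 gamma-delta cells of the injured library.

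Outside the lymphoid classes Ccl5 was the member with a level of its own, in mature dendritic cell-like cells as above. Alveolar macrophage-like cells had a Gzma UMI in 0.617% of 324 injured and 7.92% of 303 control cells where the median cell had 19590.5 and 18572 UMIs. After thinning the shares were 0% and 0.330%. Unnamed cells with a median of about 1000 UMIs held 32 Gzma, 40 Nkg7 and 224 Ccl5 counts in the control library and 1, 1 and 9 in the injured library. These 3 members stood lower in them, where 56% of 7359 genes were called, 35.6% higher and 20.4% lower. The unnamed cells pooled clusters that the libraries filled unequally, with 134 injured and 56 control cells, 1 and 102, and 27 and 1. This ratio therefore compares unlike mixtures of cells. One control cell of 42721 UMIs gave 11 of the 40 Nkg7 counts, and another cell gave 62 of the 224 Ccl5 counts. Over all cells outside the lymphoid classes 2 members stood higher and 4 lower, where 37.5% of 15333 genes were called, 20.3% higher and 17.1% lower.

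Genes with the most similar levels were sought over 35 points, each a class of at least 20 cells in 1 library, by Pearson's correlation of log2(CPM + 10). The points share libraries and depth, and 2 of them are the NK cell-like cells, so these values describe and carry no p. The mean profile of the 9 members was nearest to the T-box factor Eomes (0.98), Samd3 (0.97), the T-box factor Tbx21 (0.97), and the NK receptors Klra1, Klra4 (both 0.95) and Klre1 (0.94). Eomes, Klra4 and Klre1, and Ncr1, Klra7 and Klrd1 given next, were also among the markers that named the NK cluster. Gzma was nearest to Ncr1 and Klra7 (both 0.98), Gzmb to Klra4 and Ncr1 (both 0.95), Prf1 to Tbx21 and Samd3 (both 0.97) and Xcl1 to Eomes (0.97). Nkg7 was nearest to Cst7 (0.95) and Eomes (0.93). Ccl5 was nearest to Klrd1 and Klrk1 (both 0.87), the lowest of the 6 members for which nearest genes were sought, and Gzmk, Gzmm and Ifng were left out for their low counts.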

How the data were processed

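The authors deposited 2 filtered gene-by-cell matrices of UMI counts from 10x Genomics 3′ (version 3) libraries. Per the file headers they were made with Cell Ranger 4.0.0. With no role given, GRCm38, mm10, DESeq2 (1.26.0 and 1.28.1), featureCounts 1.6.3 and STAR 2.7.2c are named in the submitters' processing notes. How Cell Ranger assigned strand or multimapping reads is not given in the sources used here. The matrices hold 2702 and 2674 barcodes with 22314603 and 17207816 UMIs.

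Cells with at least 200 genes, 500 UMIs and at most 15% mitochondrial UMIs were kept, and a simulated-doublet score removed 44 cells per library. Each cell was set to a total of 10000 and put on a log scale. Clusters were found from 2000 variable genes without the 9 members, 30 components and 20 neighbours with leidenalg 0.10.2 at resolution 1, giving 27 clusters. T, NK and ILC2 clusters were grouped again into 8. A class needed 3 markers at least 3-fold above other cells and in 20% of its cells. This naming is rebuilt, since no deposited annotation was used.

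Counts were summed per class and library. A gene was called at a ratio of at least 1.5 with at least 10 counts in all, with no test. Log2 ratios add 10 CPM. Ratios were given for classes of at least 10 cells in both libraries. Ratios have exact conditional intervals, levels exact Poisson intervals and shares exact Clopper-Pearson intervals, at 95%. PCR and capture error are not covered. Shares of cells were thinned to 1000 UMIs per cell. The calls were checked on simulated data. Named list genes were up to 4 per list with the highest level in NK and CD8 T cell-like cells. The members, lists and rules were chosen with earlier results of these data known. Alternatives covered scaling, filters, thresholds, doublets, clustering and marker gates. Of 32285 gene IDs, 32158 were in GENCODE M21. In that annotation Gzmk overlaps Esm1 and Xcl1 overlaps Gm20743 on the opposite strand, and Ifng overlaps Gm49751 on its own strand, so their counts are less certain.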

Additional observations from a re-analysis of the deposited data

How the results depend on the processing

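No paired analysis was possible because each group is 1 library. Leaving out a replicate was not possible for the same reason. No share of all genes called is given for the alternatives below, other than for the marker gates and for cluster 4 without highest cells. The other counts cannot be set against one. In the whole library 9 of 9 members were called, 9 under each change of cell filter, size factor or cell weighting, 8 at a fold of 2, 7 after adding 1 CPM and 4 after adding 50 CPM, where low members lose their ratio by construction. In NK cell-like cells 5 were called, and between 3 (fold of 2) and 7 (marker gates, or no count minimum) under the alternatives, with no called member reversed. The marker gate also took in injured dendritic cell-like cells with many UMIs, as given above. Its count is therefore not of NK cells alone. In CD8 T cell-like cells 6 were called, 1 after adding 50 CPM, 3 with no doublets removed and 3 without each member's highest cell. Ccl5 reversed to -0.70 with no doublets removed, where the class held 1.71% of injured cells, and Xcl1 reversed to 0.12 at a mitochondrial limit of 25%. The cause was not tested. In cluster 4 the count went from 8 to 4 without the highest cells, and all alternatives without highest cells, thinned NK cells or cells with NK genes were chosen after seeing the data. In the other lymphoid classes 4 calls became 2 after adding 50 CPM, 16 with no count minimum, 12 with no doublets removed and 7 at resolution 0.5, and marker gates were not run there. The median share of control NK cell-like cells with a member's UMI was 48.9% thinned to 1000 UMIs, 75.6% at 2000 UMIs and 85.2% with no thinning. Single-member log2 ratios recomputed under the alternatives numbered 81 in the whole library, 104 in NK cell-like and 117 in CD8 T cell-like cells. Of these, 0, 0 and 2 reversed, where only a member called higher or lower in the main comparison could count as reversed. Ccl5 in NK cell-like cells was called neither and so could not count. It stood at 18034 and 17995 CPM there, and its ratio was 0.364 under the marker gate. In the 20 injured and 88 control NK cell-like cells Gzmk and Gzmm had too few counts for a ratio.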

Other observations

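In the injured library, 1 neutrophil-like cell of 6021 UMIs held all 18 Gzmb counts of its class of 586 cells, and that class had 0 counts of Gzma, Prf1, Nkg7 and Xcl1. In the control library 1 unnamed cell of 506 UMIs held 9 of the 32 Gzma counts of the unnamed cells. Gzmk was found in 1 NK cell-like cell, with 3 counts, which was also the injured cell with the most Gzma (145 counts) and the most Ccl5 (409 counts) and had 6989 UMIs. These cells were singled out after their values were seen.

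Among the 20 injured NK cell-like cells, the 5 without a Gzma UMI also had no Gzmb UMI, and 2 of them had a Prf1 UMI. All 20 held Nkg7 and Ccl5. Among the 88 control cells, 74 held Gzma together with Gzmb, 13 Gzma alone and 1 Gzmb alone.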
